A study of Homo sapiens with 8 samples.

Results

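Control RKO cells, a human colon carcinoma line obtained from ATCC, are described here from the 2 arrays of cells that had received a non-target (NC) siRNA and PBS, out of 8 arrays in the series. These cells had 100 nM of the NC siRNA for 24 h and were then given PBS, for which 72 h is given in the sample labels; the published methods give the cells less time in the medium with drug or PBS and a later harvest. The other 6 arrays carried an siRNA against SRCAP, the demethylating drug 5-Aza-CdR, or both, and they enter no comparison below. Every array of the series came from transfected cells of this 1 line, so a trait of RKO and an effect of transfection cannot be told apart. The labels number the arrays as replicates 1 and 2 without saying whether they came from separate cultures, and the replicates lay on different slides, so slide and replicate cannot be told apart either. The spread between them may therefore be technical.

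RKO cells belong to the group of colorectal cancers with unstable microsatellites and dense DNA methylation at many CpG islands, and they are widely used to study genes that are silenced in this way. A normal colon epithelial cell is defined by tight and adherens junctions, by keratin filaments, by transcription factors of the gut and by genes for mucus, ion transport and absorption. Cancer cells keep these programmes to different degrees.

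Total RNA was hybridised to Illumina HumanWG-6 v3 arrays, on which each bead type carries 1 probe. A probe was called detected when the deposited detection p, which sets its signal against the negative control beads of the same array, was under 0.01. Replicate 1 detected 18408 of 48801 probes (37.7%) and replicate 2 detected 18002 (36.9%). The lowest detected signals were 145.9 and 167.7, and the brightest were 64516 and 67862. Detection on both arrays held for 17037 probes (34.9% of all probes), on 1 array for 2336 (1371 on replicate 1 only and 965 on replicate 2 only) and on none for 29428.

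Levels are normalized log2 signals, written as replicate 1 and then replicate 2. Of 18664 named genes, 10421 were detected on both arrays by at least 1 probe (55.8%), 809 on 1 array only and 7434 on none. The median level of the genes detected on both was 10.06 and their range was 5.66 to 15.996, whereas the medians were 5.61 for genes detected on 1 array and 4.75 for genes detected on none. Levels near 5.7 thus lay at the limit of detection. Probes differ in how well they bind, so the order of 2 genes by signal is not the order of their transcripts, and a gene that was not detected may still be transcribed below this limit or outside the stretch its probe reads.

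**Figure D1:**
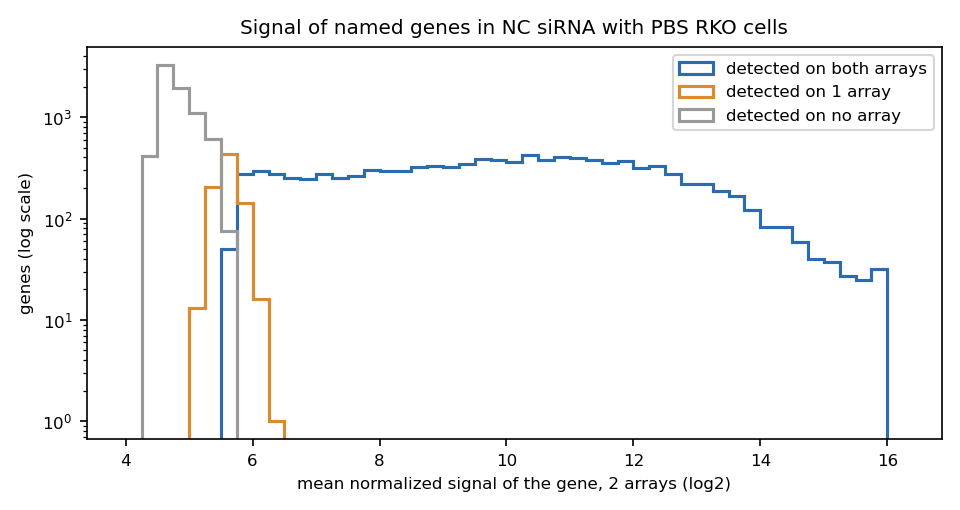
Number of named genes (log scale) by mean normalized signal (log2) over the 2 NC siRNA with PBS arrays, drawn as outlines for genes detected on both arrays, on 1 array and on no array. Genes detected on both arrays spread from 5.66 to 15.996 around a median of 10.06, and the other classes lie at its lower end and below, with medians of 5.61 and 4.75.

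The 2 arrays were close to each other across the probes. The levels of all probes had a Pearson correlation of 0.9903, and those of probes detected on both arrays 0.979. Among probes detected on both, the median distance between the arrays was 0.35 on the log2 scale, the 95th percentile was 0.95, and 640 probes (3.76%) differed by over 1. The typical SD of a gene detected on both arrays was 0.25 (median over genes, n = 2).

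The genes with the highest signals were those of protein synthesis. The 25 highest comprised the translation elongation factors EEF1A1 and EEF1G, the ribosomal proteins RPL8, RPL6, RPL41, RPL27, RPL38, RPL12, RPL18, RPS2, RPS12, RPS25, RPS10, RPS29, RPS16, RPS6 and RPS27, the cytoskeletal genes ACTG1 and TUBA1B, the iron storage chain FTL, the growth-related protein TPT1, the glycolytic enzyme ENO1, the polyamine regulator OAZ1, the integrin chain ITGB1 and the immune receptor LAIR1. EEF1A1, which brings aminoacyl-tRNA to the ribosome, had signals of 63495 and 67443 before normalization (15.996 on both arrays after it), and ACTG1, a cytoplasmic actin, read 16.01 and 15.96. These lay at the top of the signals on either array, so differences among the brightest genes may be compressed. LAIR1, an inhibitory receptor of blood cells, read 15.86 and 15.87 from its only probe. Most defining genes of blood cells were not detected, and the origin of the LAIR1 signal was not tested.

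The promoters of 6 genes that the following sections return to are shown because they cover the range of CpG content and of detection. Each is the 250 bases before the gene start in RefSeq (GRCh38.p14), 5′ to 3′ on the strand of the gene, with every CpG in capitals. EEF1A1 (chr6:73521033-73521282, minus strand), HSPA5 (chr9:125241344-125241593, minus strand), LAMB3 (chr1:209652426-209652675, minus strand) and CDX2 (chr13:27969316-27969565, minus strand) were detected on both arrays. CDKN2A (chr9:21995325-21995574, minus strand) and KRT20 (chr17:40885243-40885492, minus strand) were detected on none. The table gives 1 start per gene, and CDKN2A has further starts.
EEF1A1: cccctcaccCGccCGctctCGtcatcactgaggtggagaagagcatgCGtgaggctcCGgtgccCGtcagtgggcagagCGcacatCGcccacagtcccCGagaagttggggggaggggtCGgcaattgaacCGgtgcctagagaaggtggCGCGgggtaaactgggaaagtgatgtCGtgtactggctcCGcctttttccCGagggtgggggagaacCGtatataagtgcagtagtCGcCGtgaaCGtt
HSPA5: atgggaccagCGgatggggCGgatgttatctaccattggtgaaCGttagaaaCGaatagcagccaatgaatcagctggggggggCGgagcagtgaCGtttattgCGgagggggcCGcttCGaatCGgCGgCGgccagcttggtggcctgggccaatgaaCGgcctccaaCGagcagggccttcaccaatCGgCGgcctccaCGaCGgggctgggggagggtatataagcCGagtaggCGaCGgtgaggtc
CDKN2A: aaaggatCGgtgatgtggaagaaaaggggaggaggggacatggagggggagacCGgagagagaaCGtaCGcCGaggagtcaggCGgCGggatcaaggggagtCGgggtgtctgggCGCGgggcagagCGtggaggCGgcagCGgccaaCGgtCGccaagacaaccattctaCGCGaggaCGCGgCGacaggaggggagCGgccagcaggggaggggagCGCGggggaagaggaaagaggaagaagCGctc
LAMB3: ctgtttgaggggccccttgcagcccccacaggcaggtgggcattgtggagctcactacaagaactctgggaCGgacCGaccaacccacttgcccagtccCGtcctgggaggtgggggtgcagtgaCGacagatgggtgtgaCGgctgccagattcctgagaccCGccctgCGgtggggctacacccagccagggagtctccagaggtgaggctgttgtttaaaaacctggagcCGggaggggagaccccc
CDX2: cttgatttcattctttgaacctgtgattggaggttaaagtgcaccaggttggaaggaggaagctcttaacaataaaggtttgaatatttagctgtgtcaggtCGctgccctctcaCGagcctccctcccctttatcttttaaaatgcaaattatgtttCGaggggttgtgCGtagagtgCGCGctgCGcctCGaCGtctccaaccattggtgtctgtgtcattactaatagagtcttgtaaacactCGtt
KRT20: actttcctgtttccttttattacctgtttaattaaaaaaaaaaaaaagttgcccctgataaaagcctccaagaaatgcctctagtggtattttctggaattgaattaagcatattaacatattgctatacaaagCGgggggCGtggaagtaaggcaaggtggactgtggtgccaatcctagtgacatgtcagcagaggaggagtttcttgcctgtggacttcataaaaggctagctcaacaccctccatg
EEF1A1 has 20 CpG in this window, HSPA5 has 21 and CDKN2A has 24, against 10 in CDX2, 8 in LAMB3 and 2 in KRT20. In these windows CDKN2A and HSPA5 thus have similar CpG counts but different detection, and the CDKN2A window covers only 1 of its starts.

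The genes that the study follows fell into a detected and an undetected set. LAMB3, a laminin chain of basement membranes, read 12.61 and 12.97. G3BP1, a stress granule protein, read 11.51 and 11.08, and HSPA5, the main chaperone of the endoplasmic reticulum, read 11.31 and 11.18. These were well above the limit of detection on both arrays. EP400, the ATPase of a complex that can also place H2A.Z, read 11.26 and 10.99, and VPS72, an H2A.Z-binding subunit, read 10.11 and 10.64. SRCAP, the ATPase that exchanges H2A for H2A.Z and the target of the siRNA used on other arrays, read 7.14 and 7.01 by 1 probe, whereas its other probe was detected on neither array (4.61 and 5.30). CHFR, a mitotic checkpoint gene that is often methylated in cancer, read 6.93 and 6.52.

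The other 5 of the 12 followed genes with a name in the annotation were detected on neither array. CDKN2A, which encodes the cell cycle inhibitors p16 and ARF, read 5.14 and 5.03 by its best probe, with detection p-values of 0.104 and 0.158, and its other 2 probes read lower. SYCP3, a protein of the meiotic chromosome axis, read 5.19 and 4.95. MYOD1, the muscle master regulator, read 4.69 and 4.70, CTCFL, a testis paralogue of CTCF, read 4.62 and 4.50, and EPM2AIP1 read 4.46 and 4.54. The median level of all genes detected on no array, a class set by the same detection calls, was 4.75.

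**Figure D2:**
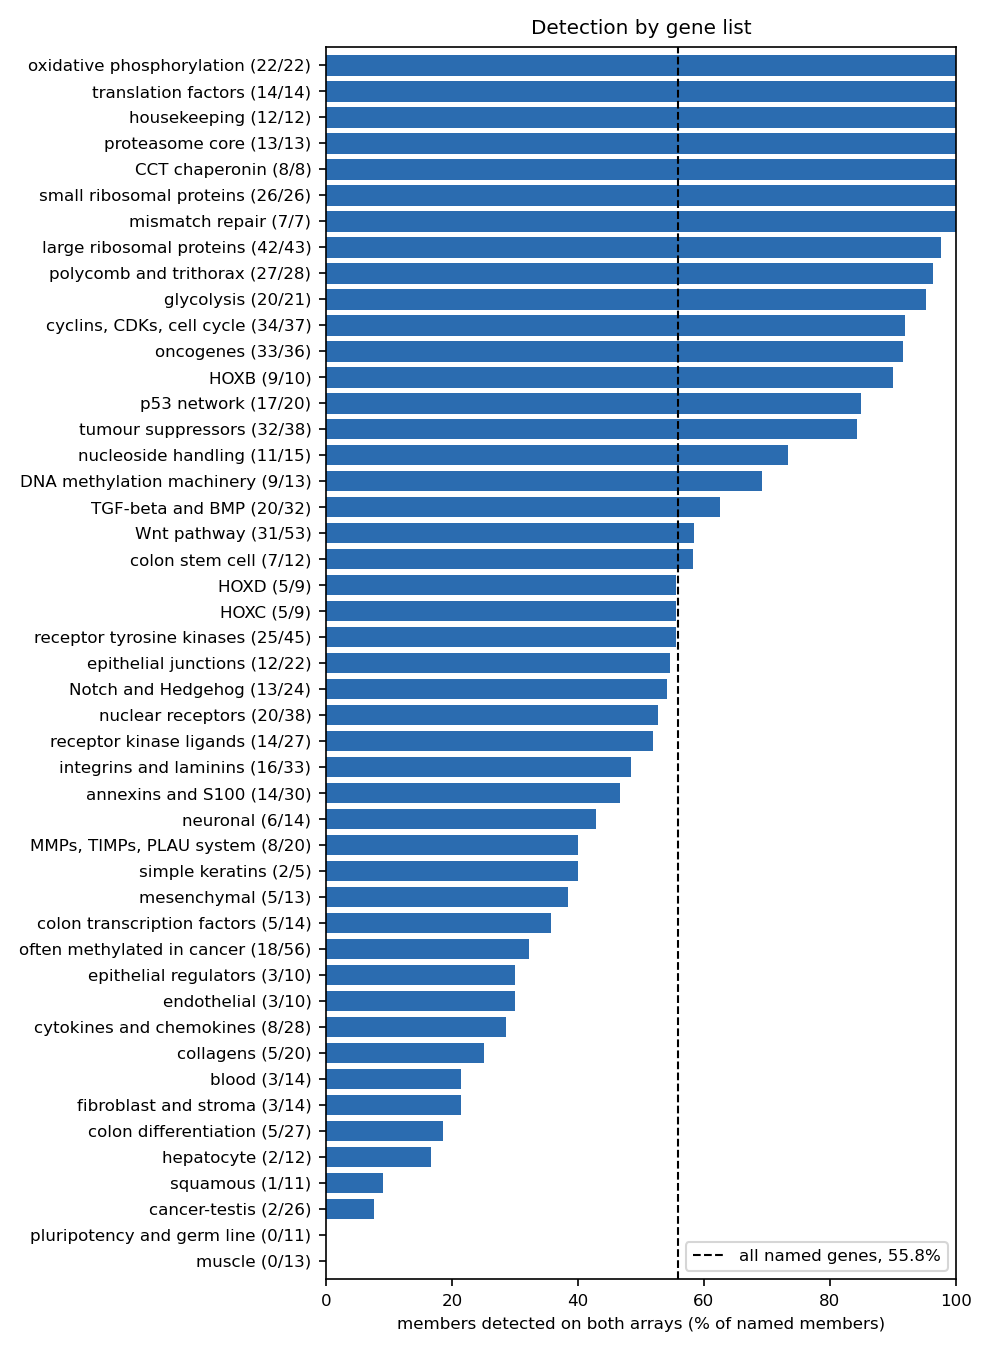
Share of the named members of each gene list detected on both NC siRNA with PBS arrays (bars, percent, with the counts beside each name); the dashed line is the share over all named genes, 55.8%. Lists of the cell's basic machinery reach or come near 100%, whereas colon differentiation (5 of 27), cancer-testis (2 of 26) and muscle (0 of 13) lie far to the left.

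The machinery of growth was detected nearly in full, beside 55.8% of all named genes. All 26 named small-subunit and 42 of 43 large-subunit ribosomal proteins were detected on both arrays, as were 14 of 14 translation factors, 22 of 22 genes of oxidative phosphorylation, 13 of 13 core proteasome subunits, 8 of 8 subunits of the CCT chaperonin, which folds actin and tubulin, and 12 of 12 housekeeping genes. RPL10 was the exception, with 5.64 and 5.38 and detection on replicate 1 only, and the signal of its other probe was detected on neither array. Of 21 glycolysis genes 20 were detected, from ENO1 (15.92 and 15.72), GAPDH (15.46 and 15.54) and LDHA (15.52 and 15.27) to ENO3 (8.26 and 8.42), the muscle form of enolase. PKLR, the pyruvate kinase of liver and red cells, was the member not detected, whereas PKM, another pyruvate kinase gene, read 12.21 and 12.88. Both the glucose carriers SLC2A1 (11.63 and 11.82) and SLC2A3 (11.88 and 11.48) were detected.

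Cell cycle genes were likewise detected as a group, with 34 of 37 on both arrays (91.9%, beside 55.8% of all named genes). With every probe required, 32 counted. The 3 D-type cyclins, which start the commitment to division with CDK4, were all among them. CCND2 read 14.25 and 13.75, CCND1 13.96 and 13.81 and CCND3 13.58 and 13.59, and CDK4 read 13.79 and 13.78. CDC20, which activates the anaphase ligase, read 13.95 and 13.87. The signals of the mitotic cyclins CCNB2 (13.35 and 13.31) and CCNA2 (13.21 and 12.79) were also high. CCNA1, a cyclin of germ cells, CCNE2 and CDKN2A were detected on neither array, and the lowest detected members were CDKN1C (7.21 and 8.21) and E2F1 (6.39 and 5.74). The CDK inhibitor CDKN1A, a target of p53, read 13.25 and 13.36.

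Of 36 named oncogenes 33 were detected on both arrays (91.7%, beside 55.8% of all named genes), or 27 with every probe required. MYC, which drives growth and ribosome production, read 14.46 and 14.41. HMGA1, a chromatin protein of embryonic and tumour cells, read 13.99 and 14.51, the survival gene BCL2L1 14.02 and 14.05 and the AP-1 subunit JUN 14.08 and 13.98. The MYC relatives differed in detection: MYCN was detected on neither array and MYCL only on replicate 2 (4.96 and 5.82). The other member detected on neither array was ETV1. AKT1 read 12.79 and 12.87, whereas AKT2 (6.16 and 6.12) and TERT (5.76 and 6.31), the catalytic subunit of telomerase, were at the dim end of the detected members.

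Receptor tyrosine kinases were detected at about the share of all named genes, with 25 of 45 on both arrays beside 55.8%, or 15 with every probe required. AXL, a receptor for GAS6, read 14.20 and 13.62, and its ligand GAS6 read 10.03 and 10.31. The related receptors TYRO3 (10.78 and 11.04) and MERTK (10.36 and 9.77) were detected as well, so all members of this small family were. RYK, a Wnt co-receptor, read 13.36 and 12.78. ERBB2 read 12.11 and 11.86 by 1 probe and was detected by neither of its other 2 probes, EGFR read 9.22 and 8.96, ERBB3 8.14 and 8.20, and MET, the receptor of HGF, read 9.97 and 9.07. HGF itself read 10.75 and 10.42. EGF, EREG and NRG1, ligands of the EGFR family, were detected on neither array, whereas HBEGF read 10.29 and 10.31. RET, ALK, ROS1 and the vascular receptors KDR, FLT1 and TEK were also detected on neither.

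Tumour suppressors from a list not chosen for methylation were mostly detected, with 32 of 38 on both arrays (84.2%, beside 55.8% of all named genes). With every probe of a gene required, 20 counted. SMARCA4, an ATPase of the SWI/SNF remodeller, read 13.47 and 13.10, the Wnt scaffold AXIN1 12.33 and 12.32 and SMAD4, the common mediator of TGF-beta signals, 12.66 and 11.69. BAX, a pro-apoptotic gene, read 11.37 and 12.39. RB1 read 10.73 and 10.08, ATM 11.34 and 10.95 and BRCA1 9.70 and 9.79. At the limit of detection were ATR (6.23 and 6.35) and APC (5.70 and 5.72), the suppressor most often lost in colon cancer. TSC2, WT1, CDH1 and LATS1 were detected on neither array. All 7 named mismatch repair genes were detected, from MSH3 (14.57 and 14.52) to MLH3 (7.85 and 7.61), and MSH6 read 13.30 and 12.77.

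Genes known to be silenced by methylation in cancers were detected on both arrays in 18 of 56 cases (32.1%, beside 55.8% of all named genes). A further 6 were detected on 1 array and 32 on none, and 8 counted with every probe required. Methylation was not measured on these arrays. Among the undetected members were CDKN2A, the Wnt inhibitors SFRP1, SFRP2, SFRP4, SFRP5 and DKK1, the protease inhibitors TIMP3 and TFPI2, the transcription factor RUNX3, the DNA translocase HLTF and the markers of the methylator phenotype CACNA1G, NEUROG1, SOCS1 and IGF2. The list was not silent throughout. SEPTIN9, a cytoskeletal gene whose methylated form is a blood marker of colon cancer, read 13.89 and 13.64. MGMT, which repairs alkylated guanine, read 11.35 and 12.49, RASSF1 read 9.16 and 9.39, and DAPK1, a death-associated kinase, read 9.67 and 9.09. CDKN2B, the neighbour of CDKN2A, read 9.68 and 9.33, whereas all 3 CDKN2A probes stayed undetected. The list also holds genes at the limit, such as RARB (5.80 and 5.70) and DKK3 (5.84 and 5.73).

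Epithelial genes were detected in part. Of 22 named junction genes 12 were detected on both arrays (54.5%, near the 55.8% of all genes), 3 on replicate 1 only and 7 on none, and with every probe required 7 counted. The alpha- and beta-catenins, which link cadherins to actin, read 14.13 and 13.67 (CTNNA1) and 13.11 and 12.19 (CTNNB1). The tight junction scaffold TJP1 read 11.87 and 11.57, CLDN12, a claudin, 12.47 and 11.44, and EPCAM, the epithelial adhesion molecule, 10.20 and 10.78. The desmosomal genes DSG2 (10.60 and 10.05) and PKP2 (9.78 and 9.24) were also clear of the limit. Other CTNNB1 probes were detected on neither array, such as 1 at 4.70 and 4.66. CTNNA1 and CTNNB1 were thus detected by at least 1 probe, but their usual cadherin was not. CDH1, which encodes E-cadherin, read 4.71 and 4.58 by its only probe, with detection p-values of 0.405 and 0.703. P-cadherin (CDH3), plakoglobin (JUP), CLDN2, CLDN3, CLDN7 and DSC2 were detected on neither array. CLDN1, OCLN and MARVELD2 were detected on replicate 1 only. CTNND1, another cadherin partner, was detected on both arrays by 1 of its 5 probes (5.88 and 5.96).

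Over the genes named as numbered cadherins, only CDH7 and CDH24 of 21 were detected on both arrays (9.52%, beside 55.8% of all named genes). The mesenchymal N-cadherin CDH2 read 5.69 and 5.62 with detection on replicate 1 only. The keratins of simple epithelia were split, with 2 of 5 detected on both arrays (40%, beside the same 55.8%). KRT18 read 11.99 and 12.30, its partner KRT8 read 6.25 and 6.59, and KRT7, KRT19 and KRT20 were detected on neither array. KRT8 has a single named probe here.

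Of 10 regulators of the epithelial state 3 were detected on both arrays (30%, beside 55.8% of all named genes). A further 2 were detected on replicate 1 only and 5 on none, and 1 counted with every probe required. OVOL2, which represses ZEB genes, read 9.58 and 10.27, KLF4 8.81 and 8.31 and GRHL1 6.24 and 5.71. GRHL2, ESRP1, a splicing factor of epithelia, EHF, KLF5 and OVOL1 were detected on neither array, and ESRP2 and ELF3 on replicate 1 only. On replicate 1 alone 5 of the 10 were detected.

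Mesenchymal genes were detected in part too, 5 of 13 on both arrays (38.5%, beside 55.8% of all named genes). VIM, the intermediate filament of mesenchymal cells, was detected by both of its probes, at 11.01 and 11.37 and at 10.12 and 10.62. ZEB1, a repressor of CDH1, read 10.87 and 10.45, TWIST1 8.57 and 8.50 and the fibronectin receptor chain ITGA5 11.66 and 11.74. FOXC2 was near the limit (5.74 and 6.06). SNAI1, SNAI2, ZEB2, fibronectin (FN1), SPARC, TGFBI and CDH11 were detected on neither array. Type I and III collagen chains (COL1A1, COL1A2 and COL3A1) were not detected, and of 20 collagen genes the 5 detected on both arrays (3 with every probe required) ranged from 5.90 to 7.44 in mean level.

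**Figure D3:**
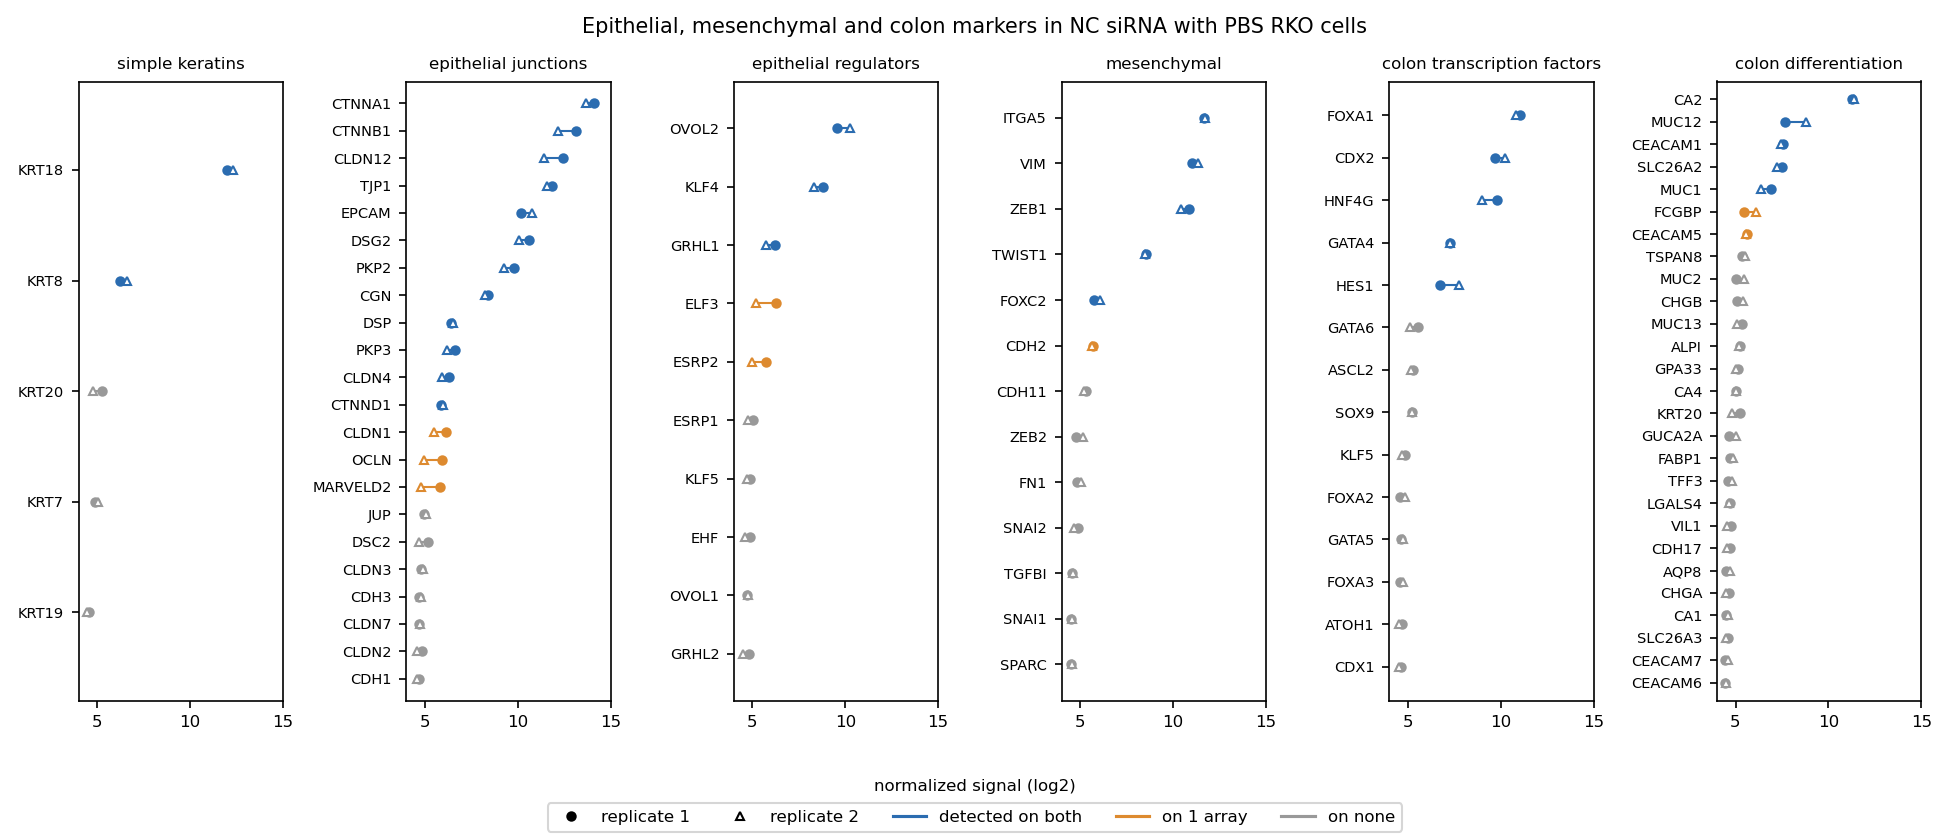
Normalized signal (log2, horizontal axis) of every named member of 6 marker lists on replicate 1 (filled circles) and replicate 2 (open triangles) of the NC siRNA with PBS cells, coloured by detection on both arrays, on 1 or on none. Members detected on none, CDH1 and KRT20 among them, lie around 5 or below, whereas KRT18, CTNNA1, VIM, FOXA1, CDX2 and CA2 lie well to the right on both arrays.

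Few genes of mature colon were detected, although the paper describes RKO as a colon cancer line. Of 27 named genes of colon differentiation 5 were detected on both arrays (18.5%, beside 55.8% of all named genes). A further 2 were detected on 1 array and 20 on none, and 2 counted with every probe required. CA2, a carbonic anhydrase of the colon surface, read 11.25 and 11.40. The membrane mucin MUC12 read 7.67 and 8.82, CEACAM1 7.56 and 7.44, the sulfate carrier SLC26A2 7.48 and 7.24 and MUC1 6.93 and 6.37. VIL1, the actin bundler of microvilli, KRT20, the goblet cell genes MUC2 and TFF3, the adhesion genes CDH17, CEACAM6 and GPA33, the chloride exchanger SLC26A3, LGALS4 and the endocrine markers CHGA and CHGB were detected on neither array. FCGBP (5.43 and 6.12) was detected on replicate 2 only and CEACAM5 (5.63 and 5.57) on replicate 1 only.

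Gut transcription factors were detected in 5 of 14 cases (35.7%, beside 55.8% of all named genes). CDX2, which specifies intestine, read 9.71 and 10.24, whereas its relative CDX1 read 4.61 and 4.52 and was detected on neither array. FOXA1 read 11.05 and 10.80 while FOXA2 and FOXA3 were not detected, and GATA4 read 7.27 and 7.25 while GATA5 and GATA6 were not. HNF4G read 9.80 and 8.98, and the Notch target HES1 read 6.71 and 7.75. In 3 families, then, 1 member was detected and its relatives were not. SOX9, KLF5, ATOH1, which makes secretory cells, and ASCL2, a stem cell factor, were detected on neither array. Of 12 colon stem cell genes 7 were detected on both arrays (58.3%, close to the 55.8% of all named genes), with ITGB1 at 15.98 and 15.77, CD44 at 14.27 and 13.69 and BMI1 at 14.01 and 13.15, and LGR5, OLFM4, SMOC2, PROM1 and ASCL2 on none. Of the 4 ITGB1 probes 1 was itself detected on neither array.

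Of the named HOXB genes, which pattern the body axis, 9 of 10 were detected on both arrays (90%, beside 55.8% of all named genes). HOXB7 read 10.92 and 11.77, HOXB2 10.35 and 10.92 and HOXB8 9.99 and 10.41. Of 9 HOXC genes 5 were detected (55.6%, about the share of all named genes, or 3 with every probe required). HOXC6 read 11.82 and 12.21 and HOXC8 10.92 and 11.13, and HOXC10 and HOXC12 were not detected. In the HOXD cluster 5 of 9 genes were detected on both arrays, again 55.6%. HOXD13, the most posterior member, read 8.66 and 8.92 and HOXD12 read 8.01 and 8.35, whereas HOXD10 and HOXD11 were detected on neither array.

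The Wnt pathway, which is constitutively active in most colon cancers, had 31 of 53 members detected on both arrays (58.5%), close to the 55.8% of all named genes. The transcription factor LEF1 read 11.72 and 11.58 and TCF7L2 read 7.63 and 8.36. Among inhibitors of the pathway AXIN2 read 8.35 and 8.25, NKD2 10.43 and 11.08 and NKD1 7.64 and 7.69, whereas RNF43, NOTUM, DKK1 and DKK4 were detected on neither array. LGR5, a receptor of R-spondins, which enhance Wnt signals, was detected on neither array either. Among the Wnt ligands WNT3 (8.43 and 8.54), WNT16 (7.61 and 7.61) and WNT10B (6.10 and 5.80) were detected on both arrays, and WNT5B, WNT10A and WNT11 on replicate 2 only. WLS, which carries Wnt proteins to the surface, read 12.73 and 12.55. Of the frizzled receptors FZD6 read 11.18 and 10.05, and FZD9 and FZD10 were detected on neither array.

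In the TGF-beta and BMP pathway 20 of 32 members were detected on both arrays (62.5%, beside 55.8% of all named genes), or 12 with every probe required. Of the 20, 3 were ligands (GDF15, TGFB3 and BMP4) and the others were receptors, mediators, targets or antagonists. TGFBR2, which is often inactivated by frameshift in tumours with unstable microsatellites, read 11.12 and 10.44, ACVR1 12.48 and 11.61 and SMAD5 12.62 and 11.99. The ligands TGFB1, TGFB2, INHBA, INHBB, BMP2 and BMP7 were detected on neither array, whereas TGFB3 read 7.90 and 7.61 and BMP4 5.66 and 5.87. GDF15, a stress-induced member, read 10.89 and 11.78. For Notch, the receptor NOTCH1 (11.69 and 11.40) and the ligands JAG2 (11.60 and 11.67) and DLL1 (10.67 and 10.67) were detected, and NOTCH3, NOTCH4, DLL3 and DLL4 were not. The p53 network had 17 of 20 members detected on both arrays (85%, beside 55.8% of all named genes), or 15 with every probe required. The detected members ranged from CDKN1A and the death receptor TNFRSF10B (13.33 and 13.03) to FAS (7.62 and 6.84).

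Polycomb and trithorax genes were detected nearly throughout. Of 28 polycomb and trithorax genes 27 were detected on both arrays (96.4%, beside 55.8% of all named genes), or 22 with every probe required. SUZ12 read 14.65 and 14.08, BMI1 14.01 and 13.15 and the methyltransferase EZH2 11.51 and 11.33. EZH1 was near the limit (5.81 and 6.28). The DNA methylation machinery had 9 of 13 named members detected on both arrays (69.2%, beside the same 55.8%), or 7 with every probe required. The maintenance methyltransferase DNMT1 read 14.48 and 14.22 and its partner UHRF1, which binds hemimethylated DNA, 14.60 and 14.04. DNMT3B, a de novo enzyme, read 8.33 and 8.17, DNMT3A was detected on replicate 2 only (5.13 and 5.87), and DNMT3L, TET1 and TET2 were detected on neither array. Enzymes that take up or convert deoxycytidine analogues are of interest in these cells because of the drug used on other arrays. DCK, which phosphorylates 5-Aza-CdR, read 12.57 and 11.85, DCTD 13.45 and 13.44, and CDA, which deaminates it, 6.41 and 5.95. Among nucleoside carriers SLC29A2 read 9.79 and 9.50, whereas SLC29A1 was detected on neither array.

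Integrins and laminins were detected on both arrays in 16 of 33 cases (48.5%, or 9 genes with every probe required) and annexins and S100 proteins in 14 of 30 (46.7%), beside 55.8% of all named genes. The laminin chains LAMB3 (above), LAMA1 (12.76 and 12.56), LAMC1 (12.86 and 12.40) and LAMA5 (12.30 and 12.13) and the integrin chains ITGB5 (12.49 and 12.47) and ITGAV (11.08 and 10.55) were detected, while ITGB4, ITGB6 and ITGA4 were not. Among annexins and S100 proteins, which bind calcium, ANXA2 read 15.48 and 15.36, ANXA5 14.72 and 14.55, S100A16 14.38 and 14.72 and S100A6 14.32 and 14.73. S100A4, S100A8, S100A9, S100A14 and S100P were detected on neither array. TIMP1, an inhibitor of metalloproteases, read 14.90 and 15.28 and the urokinase receptor PLAUR 12.12 and 12.77, whereas MMP1, MMP7 and MMP9 were not detected. MIF (14.33 and 14.66), IL18 (12.56 and 12.87) and CXCL16 (12.22 and 12.56) led the 8 of 28 cytokines detected on both arrays (28.6%, beside 55.8%). IL6, TNF, IL1A and IL1B were detected on none.

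Defining genes of other cell types were mostly undetected, whereas 55.8% of all named genes were detected on both arrays. No muscle gene of 13 and no pluripotency gene of 11 was detected on both arrays, and 2 of each list were detected on 1 array, POU5F1 (5.84 and 5.10) among them. Of 26 cancer-testis genes 2 were detected on both arrays (4 on either array alone, 1 with every probe required), LAGE3 (11.63 and 12.69) and PRAME (10.34 and 10.41), which are both transcribed more widely than most of this class. Of 14 blood cell markers CD68, a lysosomal protein, read 14.75 and 14.85, MS4A1 6.23 and 6.22 and CD79A 5.68 and 5.84, whereas PTPRC, CD3E, CD14 and SPI1 were detected on none, and 1 marker counted with every probe required. Of 14 fibroblast markers the actin-binding TAGLN (9.98 and 10.70), ACTA2 (8.47 and 8.75) and PDGFRA (6.90 and 7.77) were detected (1 with every probe required), of 12 hepatocyte markers CYP2E1 and FGA (1), of 10 endothelial markers 3 with mean levels of 5.94 to 6.95, and of 11 squamous markers 1 (3 on replicate 1 alone), KRT10 (11.58 and 12.53). Of 14 neuronal genes 6 were detected (2 with every probe required), with ENO2 at 11.54 and 11.61 and TUBB3 at 10.67 and 10.85.

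Families taken by their gene symbols spanned nearly the whole range of detection. Olfactory receptors were detected on both arrays in 18 of 380 cases (4.74%), keratin-associated proteins of hair in 2 of 79, UDP glucuronosyltransferases in 0 of 18 and interferons in 1 of 18, IFNA8. At the other end stood mitochondrial ribosomal proteins (78 of 79), exosome components (10 of 10) and minichromosome maintenance proteins of DNA replication (9 of 9). Zinc finger genes named ZNF (320 of 448, 71.4%), kinesins (25 of 35, 71.4%) and ubiquitin-specific proteases (40 of 50) lay above the 55.8% of all genes, and solute carriers (183 of 326, 56.1%) lay beside it. Below it lay potassium channels (15 of 73), cytochrome P450 enzymes (10 of 55) and protocadherins, a family of adhesion molecules (16 of 71).

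Detection went with the CpG content of the promoter. A promoter sequence was found for 14782 of the 18664 genes, of which 58.2% were detected on both arrays, and the CpG ratio (CpG observed over expected from the C and G counts in the 250 bases) was used to divide them into 4 groups of equal size. The share detected on both arrays was 19.9% in the group with the lowest ratios (ratio up to 0.37), 57.3% in the second, 74.7% in the third and 80.9% in the highest (ratio from 0.90). Among the genes detected on both arrays the median level was 8.25, 9.78, 10.31 and 10.53 in the same order. Even in the highest group 587 genes were detected on neither array, CDKN2A (ratio 1.08 at its listed start) among them. In the lowest group 736 genes were detected on both arrays, LAMB3 (ratio 0.31), RB1 and RBPJ (both 0) among them, each by its listed start. Each gene is placed by 1 listed start, and whether these cells use that start was not tested. KRT20 had a ratio of 0.19, CDX2 0.78, EEF1A1 0.86 and HSPA5 0.93. In the list of genes often methylated in cancer the median ratio was 0.75 for the 25 undetected members with a promoter sequence and 0.71 for the 14 detected on both arrays, so these 2 sets were alike in this measure.

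**Figure D4:**
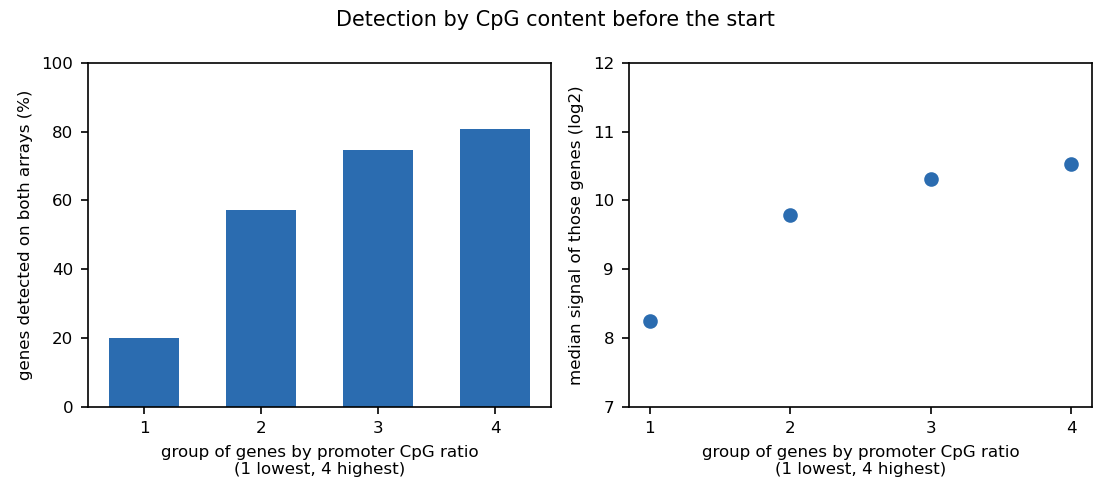
Left, percent of genes detected on both NC siRNA with PBS arrays in each of 4 groups of equal size by promoter CpG ratio (bars from 0); right, median normalized signal (log2, points, axis from 7 to 12) of the genes detected on both. The share is 19.9% in the lowest and 80.9% in the highest group, and the median signal 8.25 and 10.53.

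Short motifs were counted in the same windows on either strand. TATAAA was present before 9.12% of these genes (11.1% of all promoters in the table), and 33.5% of the genes with it were detected on both arrays against 60.7% of those without. For CCAAT, present before 34.8% (33.0% of all promoters), the shares were 60.7% and 56.9%. GGGCGG, present before 55.4% (42.3%), went with 71.1% against 42.2%, and CCGGAA, present before 19.2% (14.8%), with 80.1% against 52.97%. The last 2 motifs contain a CpG, so their counts are not separate from the CpG ratio. Of the printed windows, HSPA5, CDX2 and KRT20 contain CCAAT on either strand and EEF1A1, HSPA5 and LAMB3 contain GGGCGG, and none contains TATAAA.

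The difference between the arrays was not spread evenly over gene groups. Among all genes detected on both arrays 5209 were higher on replicate 1 and 5205 on replicate 2, with a median difference of 0.00 (replicate 1 minus replicate 2). All 8 CCT chaperonin subunits were higher on replicate 1, by a median of 0.43, and 19 of 25 kinesins were (median 0.20). In the other direction, 27 of 29 complex I subunits of the respiratory chain (median -0.67), 67 of 78 mitochondrial ribosomal proteins (-0.52), 13 of 14 glutathione S-transferases (-0.49), 9 of 10 exosome components (-0.43) and 12 of 13 core proteasome subunits (-0.30) were higher on replicate 2. These groups were picked after their values were seen. Normalization over all 8 arrays and the authors' own table gave medians for the CCT subunits of 0.43 and 0.40.

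**Figure D5:**
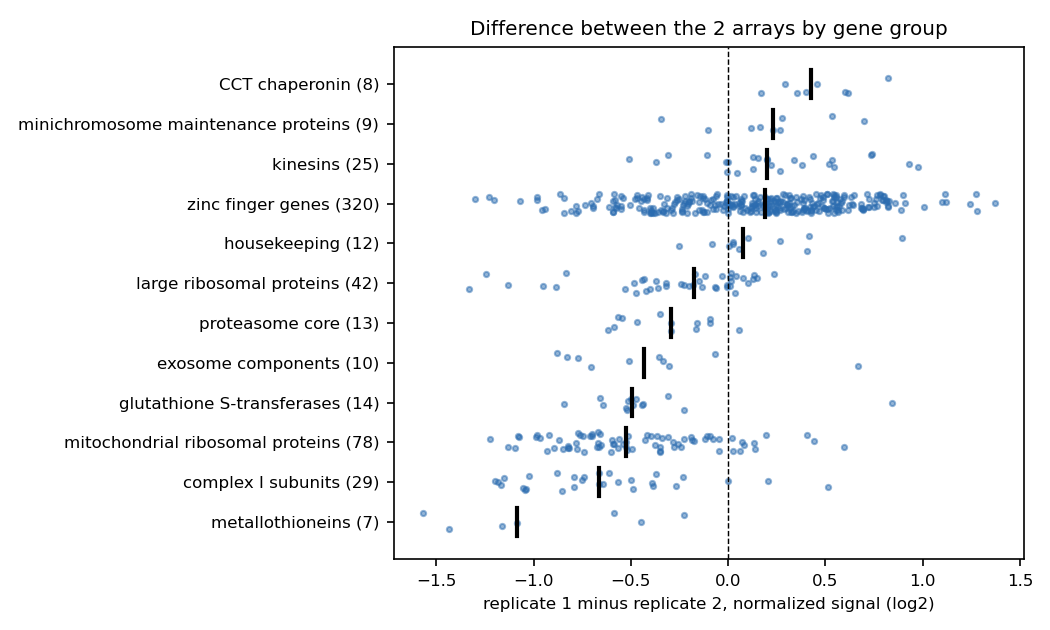
Difference between the NC siRNA with PBS arrays (replicate 1 minus replicate 2, normalized log2 signal) for genes detected on both, by gene group, with 1 point per gene, a bar at each median and the number of genes in brackets. The CCT chaperonin lies to the right (median 0.43), complex I (-0.67) and the metallothioneins (-1.09) to the left.

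Single genes with the widest distance between the arrays included FOS and CXCL8, which respond quickly to stimuli. FOS, an immediate-early gene, read 11.41 on replicate 1 and 9.32 on replicate 2, the chemokine CXCL8 8.55 and 7.15, and the heat shock protein HSPA4 11.65 and 10.28. Other immediate-early genes, looked up after FOS was seen, differed less: EGR1 read 13.12 and 12.93, FOSB 11.57 and 11.46 and DUSP1 11.82 and 11.07. The others of the 10 largest in this direction were NUDCD1, LRRC58, FCHO2, USP53, ZNF131, BROX and ZNF273. Higher on replicate 2 were CLEC2D (9.10 and 11.47), LAIR2 (11.25 and 13.25), the kinase RPS6KA2 (6.18 and 7.98), the metallothionein MT1F (8.43 and 10.00) and the interferon-induced IFI27 (10.69 and 12.20), with CAMTA2, MAMSTR, PPDPF, UBALD1 and GNL3L. All 7 metallothioneins, which bind zinc and copper, detected on both arrays were higher on replicate 2, with differences of -0.23 (MT2A, 15.56 and 15.78) to -1.57 (MT1F).

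Genes detected on 1 array only were dim. The highest was SEMA3C, a guidance signal, with 7.65 and 5.26, followed by PPP4R2 (6.90 and 5.53), CXCL2 (6.81 and 5.41), the fetal globin HBG2 (5.00 and 6.81) and INTS6L (6.68 and 5.52). Probes of the same gene could also disagree. Of 5912 genes with several probes, 2058 had every probe detected on both arrays and 1574 had 1 probe detected on both and another on none. The widest such gaps were in ITGB1 (15.98 and 15.77 by the best probe, 4.43 and 4.62 by another), NPM1 (15.77 and 15.60 against 4.88 and 4.68), HSP90AA1 (15.82 and 15.67 against 5.08 and 4.79) and GNAS (15.44 and 15.08 against 4.51 and 4.48). DBNDD2, FHL2, ITIH5, RPL3, RPS26P11 and RTN4 completed the 10 widest. Genes with several probes were detected on both arrays more often (66.0%) than genes with 1 probe (51.1%). A gene counts once any of its probes does, and whether this accounts for the difference was not tested.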

How the data were processed

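Total RNA of RKO cells was measured on Illumina HumanWG-6 v3 arrays. The submitters' processing notes name BeadStudio 3.0.1. The authors deposited mean bead intensity values that are linear and have had no background subtraction or normalization, with a detection p-value per probe and array that the authors' software derived from negative control beads. The authors also deposited a log2 table after robust spline normalization in lumi, version not given in the sources used here, which served as an alternative. Of 48805 lines with a probe ID, 2 repeated IDs were left out, giving 48801 probes. The intensities of the 2 NC siRNA with PBS arrays were processed with neqc in limma 3.58.1 (R 4.3.3), which estimates background from the detection p-values, adds an offset (16 here), equalises the distributions and takes log2. The steps were tested on simulated data. Gene symbols came from the platform annotation and were updated by gene ID through RefSeq (27539 probes matched), with 27576 probes having 1 symbol, 13 several and 21212 none. A gene is represented by its probe with the best detection and then the highest mean. No test was made, as 1 group has no contrast, and 2 arrays limit the precision.

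Genes were drawn from 49 lists, 33 symbol families, the 25 highest signals, the 10 widest gaps between arrays in each direction, the 5 highest signals detected on 1 array and the 10 widest probe disagreements. In lists, the brightest and dimmest detected members are favoured. The members and lists were chosen with earlier results of these data known, and the families after the lists were seen. Alternatives were a detection p of 0.05, every probe required, either array alone, normalization over 8 arrays, no background correction, the authors' table and a promoter window of 300 bases.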

Additional observations from a re-analysis of the deposited data

How the results depend on the processing

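The totals of probes, genes and list entries kept within 1.5 times of the main count under the alternatives run, whereas single lists did not all do so: 17 of the 49 moved further when every probe of a gene had to be detected, 4 at a detection p under 0.05, and 3 and 5 without replicate 1 and without replicate 2. Probes detected on both arrays numbered 17037, against 18718 at a detection p under 0.05 and 18002 to 18408 on either array alone. Genes numbered 10421, against 10958, 10752 to 10907 on either array alone, and 8576 when every probe of a gene had to be detected. Over the list entries, 604 were detected, against 644 at 0.05, 475 with every probe required and 627 to 642 on either array alone. The share in the group with the highest CpG ratios was 80.9%, against 81.9% to 83.1% on either array alone, and in the lowest group 19.9%, against 22.6% to 23.0% (an alternative added after seeing the data). The whole 300-base window gave 81.2% and 19.6%.

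The median level of the detected genes was 10.06, and 9.95 in the authors' table. Over 273 named genes, that table moved 187 levels by more than the SD of the same gene over the 2 arrays, by -0.30 to 2.78 (81 up and 106 down). No background correction moved 102, all up and by as much as 2.28, and normalization over 8 arrays moved 20, by at most 0.060. No paired analysis was possible because the 2 arrays form 1 group with no contrast. Signal over background sets the limit: genes near a level of 5.7 change class with the threshold.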
